A study of Mus musculus with 18 samples.

Results

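The AP-1 family was followed through 6 RNA-Seq libraries of ED1SQ4 cells. The members are the 8 genes *Fos*, *Fosb*, *Fosl1*, *Fosl2*, *Jun*, *Junb*, *Jund* and *Atf3*, chosen by symbol from the 55450 genes of the deposited count table, and each of the 8 symbols matched 1 gene. ED1SQ4 is a murine lung cancer cell line that was established from a tumor of a mouse carrying a cyclin E transgene, so every library shares that 1 background. Cells were treated for 72 hours with vehicle or with 0.5 μM CYC065, an inhibitor of CDK2 and CDK9. From each treatment, unsorted cells, cells sorted as 2N and cells sorted as 4N by their DNA content were sequenced, which gives vehicle unsorted, vehicle 2N, vehicle 4N, CYC065 unsorted, CYC065 2N and CYC065 4N libraries. A sort by DNA content alone does not part polyploid cells from cycling cells in G2 or mitosis, and the labels do not say whether the unsorted cells were stained or passed through the sorter.

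AP-1 is a transcription factor built from pairs of leucine zipper proteins. Fos proteins (c-Fos, FosB, Fra-1 from *Fosl1* and Fra-2 from *Fosl2*) cannot pair with themselves and bind DNA as partners of a Jun protein (c-Jun, JunB or JunD), while Jun proteins can also pair among themselves and with ATF proteins such as ATF3. *Fos*, *Fosb*, *Jun*, *Junb* and *Atf3* are classical immediate early genes, whose RNA appears within minutes of growth factors, stress or mechanical handling and is short-lived. *Fosl1* depends on sustained signaling through the ERK pathway in many cancer cells, and *Jund* is commonly expressed at a steady level.

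The 250 bases before the start site were read for 7 of the 8 members from RefSeq promoter windows on build GRCm38.p6, the build called mm10 by the submitters. No window was held for *Fosl1*. The windows of *Fos*, *Junb* and *Atf3* are shown because each holds the core of a cAMP response element, TGACG or its reverse complement CGTCA, which CREB and ATF proteins can bind. The window of *Jun* is shown as one without these exact letters, and variants of them were not searched for. Each is written 5′ to 3′ in the direction of the gene, with the match in capitals. They lie at chr12:85473640-85473889 on the plus strand for *Fos*, and on the minus strand at chr8:84978749-84978998 for *Junb*, chr1:191183334-191183583 for *Atf3* and chr4:95052223-95052472 for *Jun*.
Fos: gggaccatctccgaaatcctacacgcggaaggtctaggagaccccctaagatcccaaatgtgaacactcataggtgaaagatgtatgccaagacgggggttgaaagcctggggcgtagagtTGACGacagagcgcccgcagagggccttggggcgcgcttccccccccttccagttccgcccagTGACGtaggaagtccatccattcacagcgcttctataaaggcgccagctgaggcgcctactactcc
Junb: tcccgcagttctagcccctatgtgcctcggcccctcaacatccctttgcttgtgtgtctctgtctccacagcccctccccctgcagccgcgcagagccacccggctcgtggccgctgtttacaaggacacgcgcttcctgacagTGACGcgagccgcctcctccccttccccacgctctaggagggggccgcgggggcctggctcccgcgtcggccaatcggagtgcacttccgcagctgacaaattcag
Atf3: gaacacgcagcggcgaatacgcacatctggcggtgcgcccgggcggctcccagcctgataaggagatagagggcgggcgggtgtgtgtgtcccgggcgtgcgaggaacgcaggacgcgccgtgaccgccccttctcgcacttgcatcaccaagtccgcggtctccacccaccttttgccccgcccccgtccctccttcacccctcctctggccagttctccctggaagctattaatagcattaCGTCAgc
Jun: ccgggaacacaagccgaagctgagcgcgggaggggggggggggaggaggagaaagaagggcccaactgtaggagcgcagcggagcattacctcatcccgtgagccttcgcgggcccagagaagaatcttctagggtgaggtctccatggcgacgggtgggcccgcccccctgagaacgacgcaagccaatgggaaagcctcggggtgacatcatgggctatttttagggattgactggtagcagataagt

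Of the 7 windows, 4 held TGACG on either strand, as did 17.8% of 32851 RefSeq windows of the same length. In *Fos* it began 129 and again 66 bases before the start, in *Junb* 106 and in *Atf3* 7 bases before it. *Fosb*, which is not printed, held it 60 bases before its start at base 19310045 of chromosome 7. The windows of *Fosl2*, *Jun* and *Jund* did not hold these letters, and those of *Fosl2* and *Jund* lie 299 and 1210 bases from the nearest GENCODE start, so another promoter may be meant there. The *Atf3* window lies before a start at base 191183333, within the gene, which begins at base 191218039 on the minus strand. A start farther upstream was thus not read. None of the 7 held the full element TGACGTCA (1.55% of all windows), the AP-1 site TGANTCA (6.75%) or a CArG box (1.47%), the element bound by SRF. TATAAA was found in the *Fos* window, 33 to 28 bases before the start, and in none of the other 6 windows (12.4% of all). A match of letters is a description of the window and not a bound site. Bases farther from the start were not read, so a missing match does not show that a gene lacks the element. A serum response element of *Fos*, which SRF binds, would have been missed if it lies beyond the window.

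Each library held 54750127 to 62795460 summed expected counts. The 3 replicate columns of a condition carry 1 library name in 3 parts, and over genes with whole counts their chi-square per degree of freedom was 0.991 to 1.02, so they differed by no more than sampling noise and were counted as 1 library. No comparison below therefore has replicate cultures, no P value is given, and each interval is a 95% interval for counting error alone. Levels are CPM, read counts relative to library size, after TMM scaling, and log2 fold changes above 1 or below −1 were counted as past the threshold. In bulk RNA, a change within each cell and a change in the share of cells that express a gene cannot be told apart. The cells did not carry epithelial markers. All 5 epithelial genes examined (*Epcam*, *Cdh1*, *Krt8*, *Krt18*, *Krt19*) stayed below 1 CPM in every library, as did 4 lung epithelial genes, of which *Nkx2-1* and *Scgb1a1* were at 0 throughout. The mesenchymal genes *Vim*, *Cdh2* and *Zeb1* lay between 104 and 4765 CPM and the fibroblast genes *Col1a1*, *Col1a2* and *Pdgfra* between 326 and 6902 CPM. Endothelial and leukocyte genes did not exceed 1.55 and 0.12 CPM. The label of lung cancer cells is therefore not borne out by lung or epithelial markers, and the cells are called by their line name here.

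All 8 members were expressed, and none had a fractional count, which RSEM gives to 9.66% of genes where reads are divided between similar sequences. *Fos*, the gene of c-Fos on chromosome 12 (chr12:85473890-85477273, plus strand), stood at 2.13, 18.5 and 9.42 CPM in unsorted, 2N and 4N cells under vehicle and at 31.0, 104 and 50.5 CPM in unsorted, 2N and 4N cells under CYC065. Every CYC065 library lay above every vehicle library, and within each treatment the order was 2N, then 4N, then unsorted. The lowest of these levels rests on 122 reads (36, 44 and 42 in the 3 columns) and the highest on 6085. *Fosb* (chr7:19302696-19310051, minus strand) followed the same order, with 2.84, 6.46 and 4.61 CPM in vehicle unsorted, 2N and 4N cells and 11.6, 26.2 and 12.9 CPM in the CYC065 libraries. All neighbors in the order of *Fos* and of *Fosb* differed beyond counting error, the closest being *Fosb* in CYC065 4N and unsorted cells (log2 difference 0.16, interval 0.01 to 0.31). The share of all genes with every CYC065 library on the same side of every vehicle library was not computed, here or for members below.

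*Fosl1*, the gene of Fra-1 (chr19:5447547-5455946, plus strand), was lower with CYC065 and had the population order of *Fos* within each treatment. Its levels were 144, 237 and 209 CPM in vehicle unsorted, 2N and 4N cells and 43.4, 65.1 and 60.1 CPM in CYC065 unsorted, 2N and 4N cells. The vehicle and CYC065 libraries did not overlap, and the sorted libraries of each treatment lay above the unsorted one. *Fosl2*, the gene of Fra-2 (chr5:32135801-32157842, plus strand), had 238, 255 and 260 CPM in vehicle unsorted, 2N and 4N cells and 476, 414 and 472 CPM in the same order under CYC065. All 3 CYC065 libraries were higher than all 3 vehicle libraries. Vehicle 4N and 2N cells, and CYC065 unsorted and 4N cells, did not differ in *Fosl2* beyond counting error.

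Among the Jun genes, *Junb* (chr8:84974484-84978718, minus strand) was at 177, 191 and 158 CPM in vehicle unsorted, 2N and 4N cells and at 379, 405 and 255 CPM in the CYC065 libraries, again without overlap between the treatments. *Jun* (chr4:95049034-95052222, minus strand, 1 exon) varied less, from 96.5 CPM in vehicle 4N to 162 CPM in CYC065 2N cells, with 120, 134, 139 and 111 CPM in vehicle unsorted, vehicle 2N, CYC065 unsorted and CYC065 4N cells. Its treatments overlapped, and the 4N library was the lowest under either treatment. *Jund* (chr8:70698949-70700616, plus strand, 1 exon) lay at 58.2, 76.5 and 75.6 CPM under vehicle and at 55.0, 62.0 and 51.7 CPM under CYC065. Vehicle 2N and 4N cells did not differ in *Jund* beyond counting error, and the CYC065 2N library lay above the vehicle unsorted one.

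*Atf3*, a stress-induced partner of Jun proteins (chr1:191170296-191218039, minus strand), was low in 4 libraries and high in 2. Vehicle unsorted, 2N and 4N cells had 3.12, 4.52 and 3.00 CPM and CYC065 unsorted cells 4.87 CPM, whereas CYC065 2N and 4N cells had 21.2 and 12.7 CPM. The unsorted CYC065 library did not differ from vehicle 2N, nor vehicle unsorted from vehicle 4N, beyond counting error. The sorted CYC065 libraries, with 1237 and 862 reads, stood apart from all others.

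**Figure D1:**
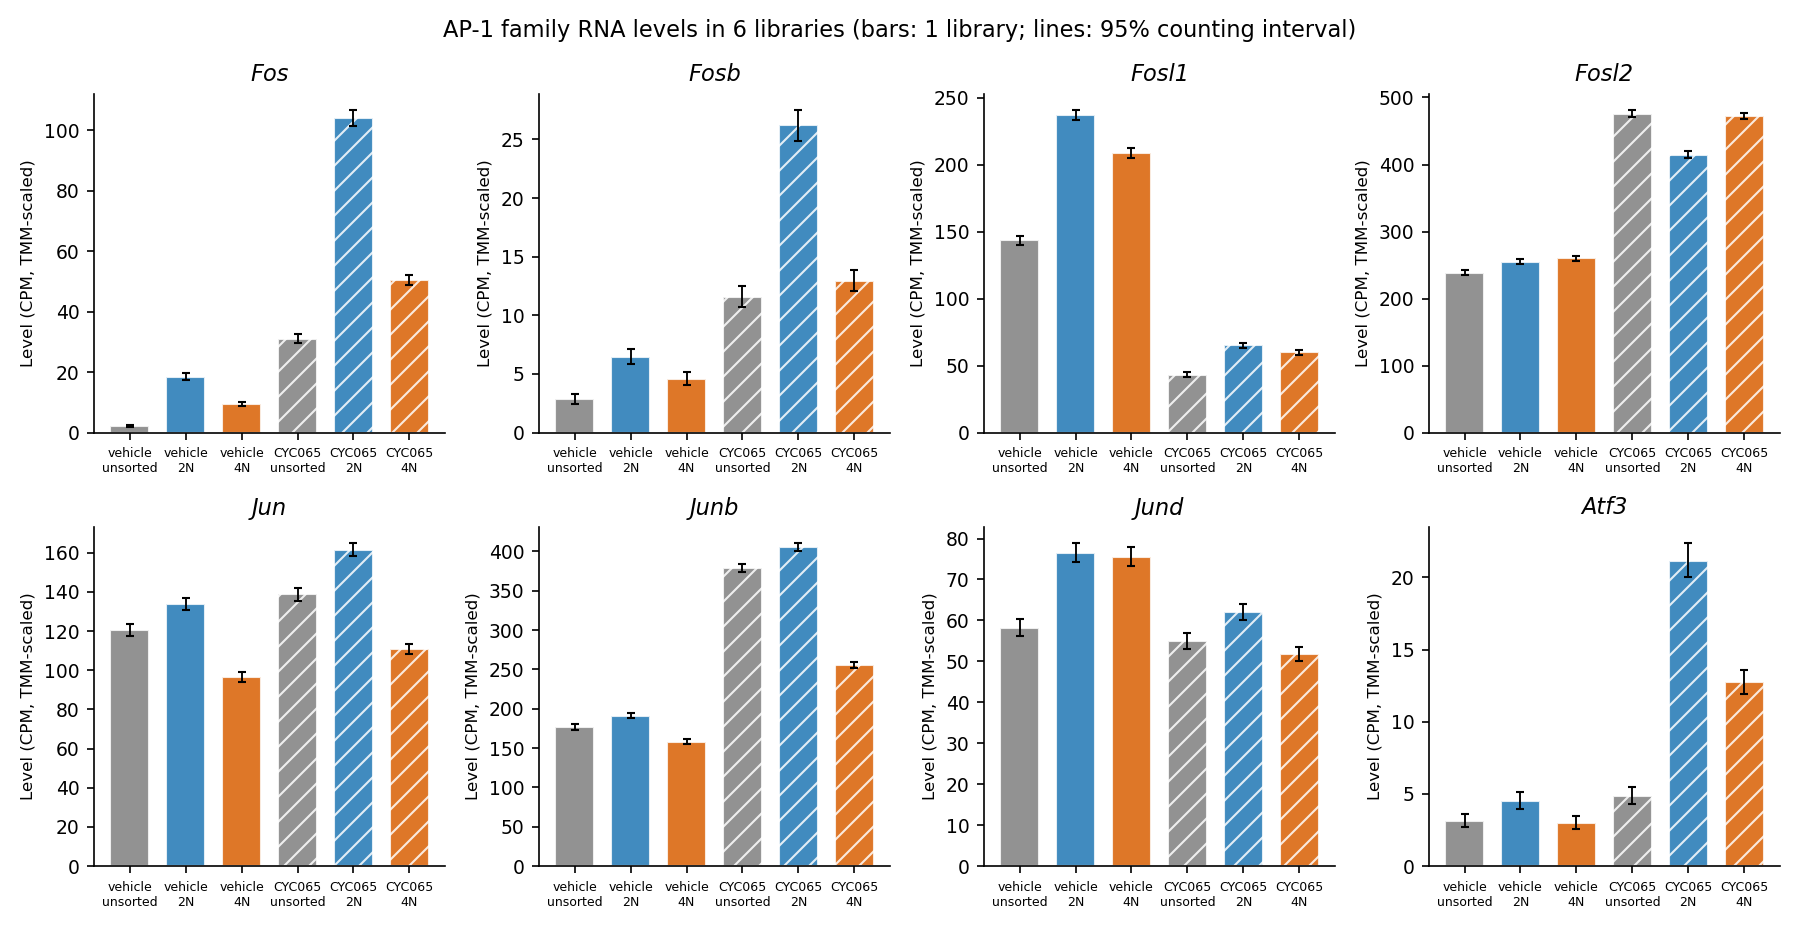
Level of each AP-1 member in the 6 libraries (y axis, CPM after TMM scaling, each panel from 0; x axis, treatment and sorted population). A bar is 1 library and its line the 95% counting interval; hatched bars are CYC065. *Fos*, *Fosb*, *Fosl2* and *Junb* were higher in every CYC065 library than in any vehicle library, *Fosl1* was lower, and *Atf3* was high only in CYC065 2N and 4N cells. How common such a separation of the treatments is among all genes was not computed.

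The first question was what 72 hours of CYC065 left of AP-1 RNA in unsorted cells and in cells of either DNA content. *Fos* had the largest difference of the family. It was 14.6-fold higher with CYC065 in unsorted cells (log2 fold change 3.86, interval 3.60 to 4.14), 5.62-fold in 2N cells (2.49, 2.39 to 2.59) and 5.36-fold in 4N cells (2.42, 2.29 to 2.56). The vehicle level of *Fos* in sorted cells was several times that of unsorted cells, so the smaller ratios stand on higher levels. *Fosb* was 4.07-fold higher in unsorted cells (2.02, 1.77 to 2.28), 4.05-fold in 2N cells (2.02, 1.85 to 2.19) and 2.81-fold in 4N cells (1.49, 1.29 to 1.69). Of all genes compared, 14084 in unsorted, 14093 in 2N and 14183 in 4N cells, 11.7%, 14.9% and 14.2% were higher past the threshold and 14.0%, 13.3% and 11.4% were lower. Among the 8 members, 3 were higher and 1 lower in unsorted cells, 4 and 1 in 2N cells, and 3 and 1 in 4N cells. In each population, the median over the members (0.82, 0.89 and 0.78) lay above the median over all genes (−0.07, −0.07 and −0.03).

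*Fosl1* was the 1 member that was lower past the threshold, and it was so in all 3 populations. The ratio was 3.31-fold lower in unsorted cells (−1.73, −1.79 to −1.66), 3.64-fold lower in 2N cells (−1.87, −1.92 to −1.81) and 3.48-fold lower in 4N cells (−1.80, −1.85 to −1.75). The 3 populations gave like values although their vehicle levels ranged from 144 to 237 CPM. *Ccdc85b*, a gene on the opposite strand, covers 57.2% of the *Fosl1* exon length, and it moved with *Fosl1* at 38.8, 72.0 and 52.6 CPM under vehicle and 17.3, 24.7 and 21.7 CPM under CYC065. The kit keeps strand, but whether the counting used it is not given in the sources used here. *Fosl1* had no fractional count, which RSEM gives where reads are divided between genes. Whether reads of *Ccdc85b* entered the *Fosl1* counts was not tested.

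*Fosl2* was higher with CYC065 by a log2 fold change of 1.00 in unsorted cells (0.97 to 1.03), a value just under the threshold before rounding that passed it under 8 of 14 alternatives (0.95 to 1.10), and by 0.70 (0.67 to 0.73) in 2N and 0.86 (0.83 to 0.89) in 4N cells. *Junb* was 2.14-fold higher in unsorted cells (1.10, 1.06 to 1.13) and 2.12-fold in 2N cells (1.08, 1.05 to 1.12), and its log2 fold change in 4N cells was 0.69 (0.65 to 0.73). The exons of *Junb* share 7.52% of their length with *Prdx2* on the opposite strand, which was lower with CYC065 (525, 431 and 425 CPM against 316, 325 and 305 CPM).

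The remaining Jun genes moved little. *Jun*, the founding partner of c-Fos, had log2 fold changes of 0.20, 0.27 and 0.20 in unsorted, 2N and 4N cells. For *Jund* they were −0.08, −0.30 and −0.55, and none of the 6 values passed the threshold. *Jund* shares 52.6% of its exon length with *Gm11175* on the opposite strand, which had at most 20 reads in any library, and *Jun* shares 7.28% with *Junos*, with at most 90 reads.

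*Atf3* depended on the population. Its log2 fold change with CYC065 was 0.64 (0.36 to 0.92) in unsorted cells, against 2.23 (2.03 to 2.43) in 2N and 2.08 (1.85 to 2.33) in 4N cells, a 4.68-fold and a 4.24-fold difference. The CYC065 effect on *Atf3* was thus larger than in unsorted cells by 1.59 (1.25 to 1.92) in 2N cells and by 1.44 (1.08 to 1.80) in 4N cells. For *Fos* it was smaller, by −1.37 (−1.66 to −1.09) and −1.44 (−1.74 to −1.15). These were the 2 members past 1 in this difference, of which 12.1% of 14521 genes in 2N and 12.8% of 14577 genes in 4N cells passed in either direction. The difference was computed after the levels were seen, it rests on 4 single libraries each time, and 0 members passed with an assumed coefficient of variation of 0.2 between cultures.

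**Figure D2:**
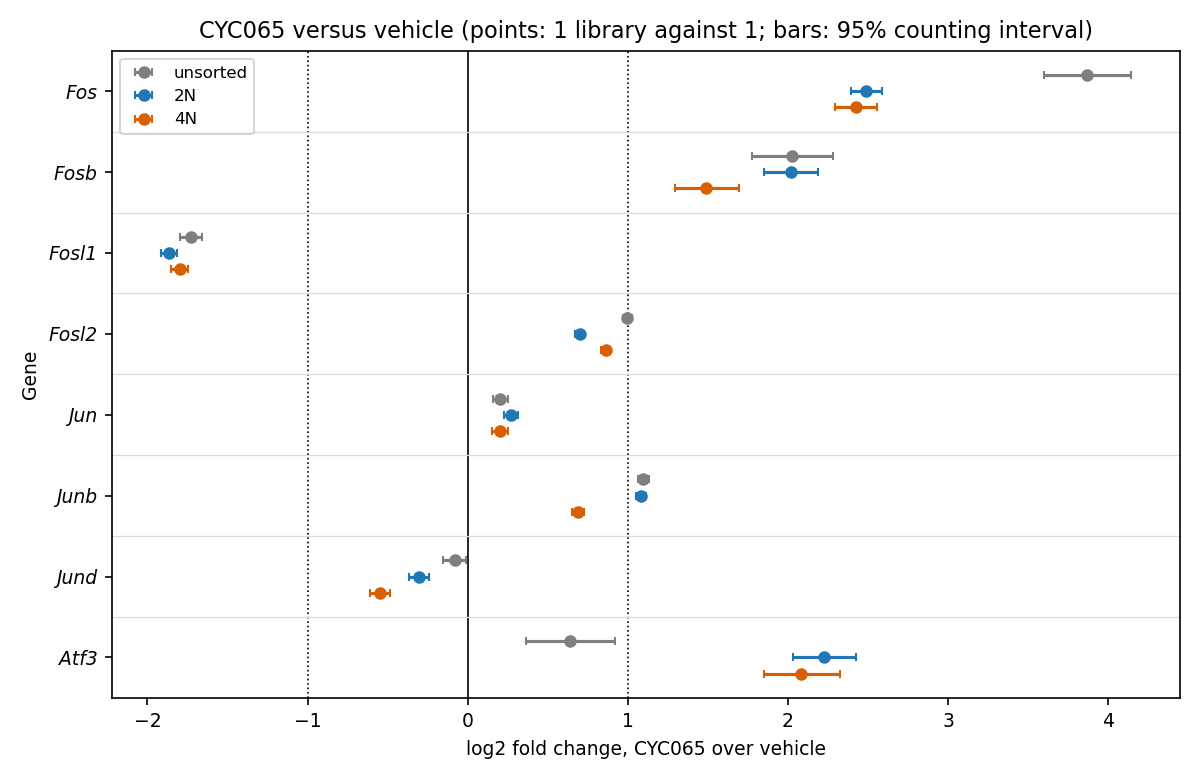
Log2 fold change of CYC065 over vehicle (x axis) for each member (y axis) in unsorted (gray), 2N (blue) and 4N (orange) cells. A point is 1 library against 1, its bar the 95% counting interval, and the dotted lines mark −1 and 1. *Fos* and *Fosb* lie right of 1 and *Fosl1* left of −1 in all 3 populations, while *Atf3* passes 1 in 2N and 4N cells alone.

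Levels of different genes were set side by side per kilobase of exon, which rests on the length taken for each gene. On that scale, the make-up of the Fos genes differed between treatments more than their sum. Under vehicle *Fosl1* made 73.1% of the summed level of the 4 Fos genes in unsorted, 76.8% in 2N and 76.5% in 4N cells. Under CYC065 its share was 24.9%, 26.0% and 29.0%. *Fosl2* went from 25.5%, 17.4% and 20.0% of that sum to 57.5%, 34.7% and 47.9%, and *Fos* from 0.94%, 5.19% and 2.98% to 15.4%, 35.9% and 21.1%. In CYC065 2N cells *Fos* (44.3 CPM per kb) was level with *Fosl2* (42.8) and above *Fosl1* (32.0). The sum of the 4 Fos genes itself was 96.6, 152 and 134 CPM per kb under vehicle and 85.6, 123 and 102 CPM per kb under CYC065, which is 0.886, 0.812 and 0.758 of the vehicle level. The length is that of all annotated exons merged, and no other length was tried. Not divided by length or scaled, the summed counts of the 4 Fos genes were higher with CYC065. They were 22177, 29060 and 28314 under vehicle and 30937, 35647 and 40353 under CYC065. The direction of the difference in the sum thus rests on the lengths taken.

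The 3 Jun genes summed to 150, 171 and 144 CPM per kb under vehicle and to 241, 264 and 177 CPM per kb under CYC065, or 1.61, 1.54 and 1.22 times the vehicle level. *Junb* made 51.4%, 48.6% and 47.6% of the Jun sum under vehicle and 68.3%, 66.7% and 62.8% under CYC065. *Junb* was also the member of highest level per length under CYC065, at 165, 176 and 111 CPM per kb. Under vehicle that place was held by *Junb* in unsorted cells (76.9 against 70.6 CPM per kb for *Fosl1*) and by *Fosl1* in 2N and 4N cells (117 and 103 against 83.2 and 68.7 for *Junb*).

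**Figure D3:**
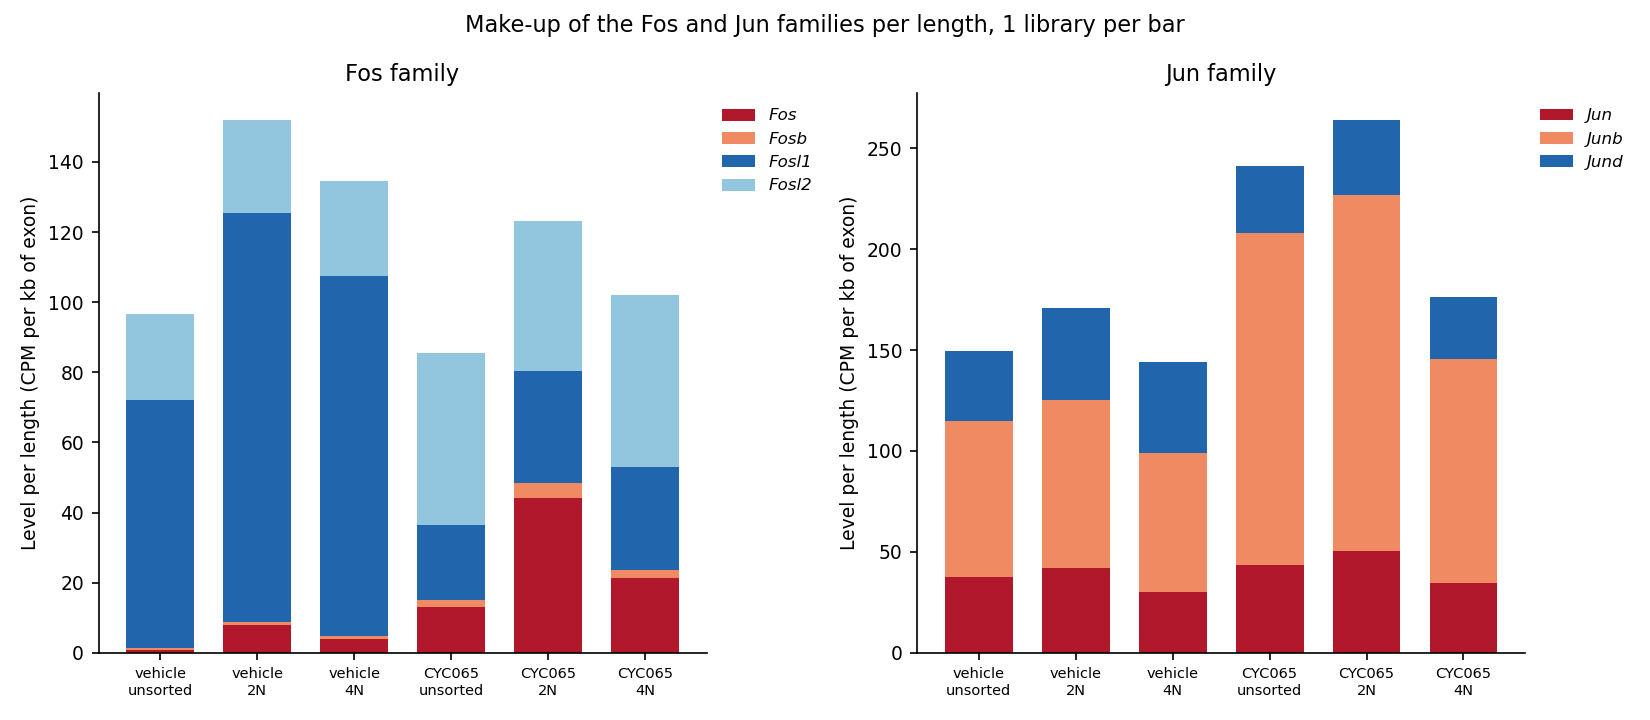
Level per length (y axis, CPM per kb of exon) of the Fos genes (left) and the Jun genes (right), stacked for each library (x axis); each bar is 1 library with no replicate. The *Fosl1* part fills 73.1% to 76.8% of the Fos bars under vehicle and 24.9% to 29.0% under CYC065, and the *Junb* part of the Jun bars is larger under CYC065.

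The next question was how 4N cells differed from 2N cells. With vehicle, *Fos* had 18.5 CPM in 2N and 9.42 CPM in 4N cells, which is −0.98 on the log2 scale (−1.13 to −0.83). It was the lowest value of the family, and no member passed the threshold, which 2.73% of 13364 genes passed in either direction. With CYC065, *Fos* was 2.06-fold lower in 4N cells (−1.04, −1.10 to −0.98) and *Fosb* 2.02-fold lower (−1.02, −1.14 to −0.90). These 2 members passed the threshold downwards, as did 2.05% of 14183 genes, and both intervals reached across −1. Without replicate column 1, *Fosb* with CYC065 had −0.99, and without column 2, *Fos* with vehicle had −1.02.

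Under each treatment, 7 of the 8 members had a lower value in 4N than in 2N cells, *Fosl2* being the exception (0.03 with vehicle and 0.19 with CYC065). Lower beyond counting error were 6 members with vehicle and 7 with CYC065, beside 25.6% and 25.1% of all genes. The median over the members was −0.37 with vehicle and −0.61 with CYC065, beside 0.01 and 0.02 over all genes. *Junb* had −0.28 (−0.31 to −0.23) with vehicle and −0.67 (−0.70 to −0.64) with CYC065. *Jun* had −0.47 and −0.54, and *Atf3* −0.59 (−0.88 to −0.31) and −0.73 (−0.86 to −0.61). *Fosl1* differed little, with −0.18 and −0.11, and for *Jund* with vehicle (−0.02, −0.08 to 0.04) and *Fosl2* with vehicle no difference was detectable at this depth.

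The 4N/2N ratios of both treatments were then set against each other. No member differed by more than 1, which 7.3% of 14484 genes did in either direction. *Fosb* (−0.53, −0.79 to −0.27) and *Junb* (−0.39, −0.44 to −0.34) had the lowest values, so that their deficit in 4N cells was larger with CYC065. For *Fos* the difference was −0.07 (−0.23 to 0.09) and for *Atf3* −0.14 (−0.45 to 0.16), both within counting error.

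**Figure D4:**
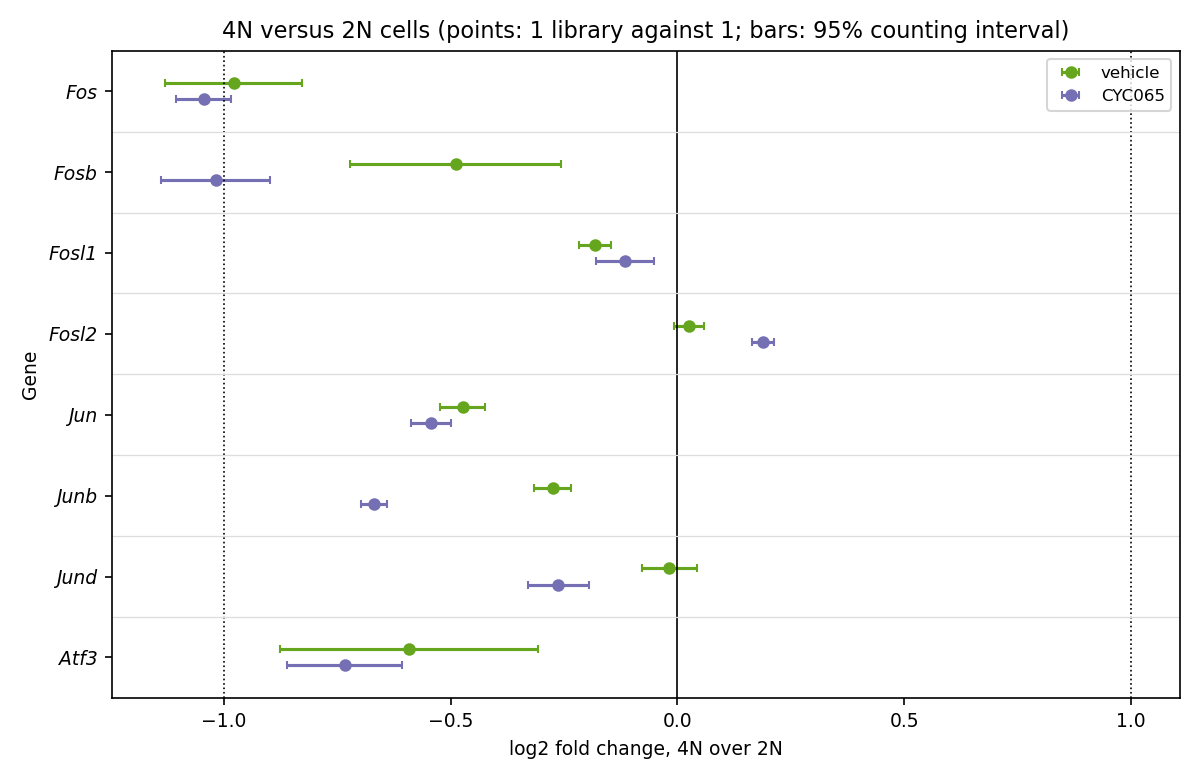
Log2 fold change of 4N over 2N cells (x axis) for each member (y axis) with vehicle (green) and CYC065 (purple); a point is 1 library against 1, its bar the 95% counting interval, and the dotted lines mark −1 and 1. All members but *Fosl2* lie left of 0 with either treatment, *Jund* with vehicle within counting error, and *Fos* and *Fosb* with CYC065 lie just beyond −1.

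Sorted cells were then compared with unsorted cells of the same treatment. With vehicle, *Fos* went from 2.13 CPM in unsorted cells to 18.5 CPM in 2N and 9.42 CPM in 4N cells, 8.70-fold (3.12, 2.85 to 3.40) and 4.42-fold (2.14, 1.86 to 2.44) higher. No other member differed as much. *Fosb* was 2.27-fold higher in vehicle 2N cells (1.18, 0.91 to 1.46) and had 0.70 (0.41 to 0.98) in 4N cells. Members past the threshold, all higher, numbered 2 in 2N and 1 in 4N cells with vehicle, where 3.28% of 13663 and 3.61% of 13709 genes were higher.

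With CYC065, *Atf3* showed the largest contrast, from 4.87 CPM in unsorted to 21.2 CPM in 2N and 12.7 CPM in 4N cells (2.12, 1.93 to 2.32, and 1.39, 1.19 to 1.59). *Fos* was 3.35-fold higher in 2N cells (1.75, 1.67 to 1.82) and had 0.70 (0.62 to 0.79) in 4N cells. *Fosb* was 2.26-fold higher in 2N cells (1.18, 1.04 to 1.31) and had 0.16 (0.01 to 0.31) in 4N cells. Past the threshold were 3 members in 2N and 1 in 4N cells, all higher, as were 3.6% of 14123 and 4.23% of 14222 genes.

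*Fosl1* was moderately higher in all 4 sorted libraries, by 0.72 and 0.54 with vehicle and 0.59 and 0.47 with CYC065. *Jun* and *Junb* were slightly higher in 2N cells (0.10 to 0.22) and lower in 4N cells (−0.57 to −0.16). *Fosl2* stayed within 0.20 of the unsorted level and *Jund* within 0.39. The 2 unsorted libraries serve in both sorted comparisons of their treatment, so the 2N and 4N values are not independent.

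**Figure D5:**
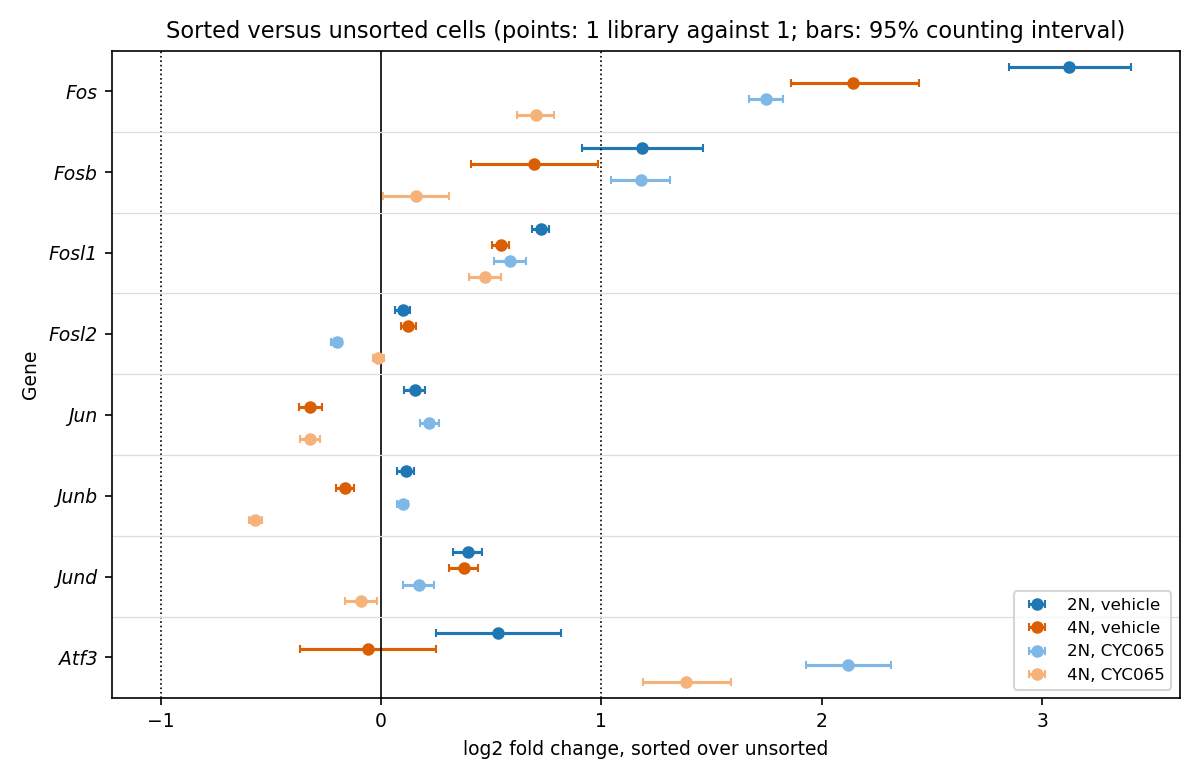
Log2 fold change of sorted over unsorted cells (x axis) for each member (y axis), in 2N (blue) and 4N (orange) cells with vehicle (dark) and CYC065 (light); a point is 1 library against 1 and its bar the 95% counting interval. *Fos* with vehicle in 2N (3.12) and 4N cells (2.14) and *Atf3* with CYC065 in 2N cells (2.12) lie farthest right, and *Junb* with CYC065 in 4N cells (−0.57) lies farthest left.

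Other immediate early and handling-responsive genes were counted as a list of 23. With CYC065, 8 of the 23 were higher past the threshold in unsorted cells, 14 in 2N and 10 in 4N cells, and 0, 0 and 1 were lower (medians 0.78, 1.31 and 0.86), where 11.7%, 14.9% and 14.2% of all genes were higher and 14.0%, 13.3% and 11.4% lower. *Nr4a2*, an orphan nuclear receptor, was highest in unsorted and 4N cells (3.21 and 2.51), *Dusp1*, a MAP kinase phosphatase, followed in unsorted cells (2.18), and *Hspa1b*, a heat shock gene, and *Nr4a1* led in 2N cells (2.99 and 2.52). *Dusp5*, a phosphatase of ERK, was lowest (−0.91, −0.88 and −1.08). In 4N against 2N cells 0 were higher and 1 was lower with vehicle (*Egr2*, −1.28), and 0 and 6 with CYC065 (*Gadd45g* −1.69, *Gadd45b* −1.68), with medians of −0.32 and −0.64. Over all genes in that comparison, 136 were higher and 229 lower of 13364 with vehicle, and 225 and 291 of 14183 with CYC065. In 2N against unsorted cells with vehicle, in which *Fos* was 8.70-fold higher, 4 were higher (*Btg2* 1.97, *Ccn1* 1.50, *Egr2* 1.04, *Dusp5* 1.02) and 2 lower (*Gadd45g* −1.91, *Hspa1b* −1.27), with a median of 0.03. With CYC065 7 were higher (*Egr2* 2.47, *Btg2* 2.10) and 0 lower, with a median of 0.73. Over all genes in 2N against unsorted cells, 448 were higher and 994 lower of 13663 with vehicle, and 508 and 459 of 14123 with CYC065. The 2 of 23 lower with vehicle are near the share over all genes. In 4N against unsorted cells 3 were higher (*Ccn1* 1.81, *Ccn2* 1.31, *Btg2* 1.11) and 4 lower with vehicle (*Gadd45g* −2.23, *Hspa1b* −1.52, *Socs3* −1.37, *Hspa1a* −1.28), and 2 (*Egr2* 1.25, *Btg2* 1.14) and 1 (*Egr1* −1.29) with CYC065. Over all genes there, 495 were higher and 1190 lower of 13709 with vehicle, and 601 and 673 of 14222 with CYC065. The 1 of 23 lower with CYC065 is near that share. The part of cell handling in the *Fos*, *Fosb* and *Atf3* levels of sorted cells was not tested. *Hspa1b* has fractional counts shared with a near-identical copy.

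Kinases and factors that act upstream of AP-1 were counted next. Of 21 to 22 compared out of 23, 0 were higher and 2 lower past the threshold with CYC065 in unsorted cells, 1 and 2 in 2N cells and 1 and 3 in 4N cells. Over all genes, 11.7%, 14.9% and 14.2% were higher and 14.0%, 13.3% and 11.4% lower in these populations, and whether the list differs from them was not tested. *Srf*, the factor that binds the serum response element of *Fos*, was lower in each population (−1.11, −1.44 and −1.48), as was *Mapk11*, the p38β kinase (−1.49, −1.81 and −1.46). *Map2k6*, an activating kinase of p38, was the highest of those with at least 100 counts, at 0.57, 1.15 and 0.98. The other genes of the list past the threshold were *Mapk10* (1.92) and *Rps6ka3* (−1.11), both in 4N cells and both named after their values were seen. In sorted against unsorted cells and in 4N against 2N cells none of the list passed it.

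Of 19 leucine zipper proteins that can pair with AP-1 members, 16 were compared. With CYC065, 1 was higher and 0 lower in unsorted cells, 2 and 2 in 2N, and 3 and 2 in 4N cells. In 2N cells both counts are near the share over all genes (14.9% higher and 13.3% lower), beside 11.7% and 14.0% in unsorted and 14.2% and 11.4% in 4N cells. *Maf* had 1.71, 1.42 and 1.14 in unsorted, 2N and 4N cells, *Cebpb*, the gene of C/EBPβ, 1.37 in 4N cells, and *Ddit3*, the gene of CHOP, 1.10 and 1.59 in 2N and 4N cells, with fractional counts. *Atf4*, the main factor of the integrated stress response and a known activator of *Atf3*, was lower (−0.86 in unsorted, −1.02 in 2N and just past −1 in 4N cells), and *Batf3* had −1.63 and −1.06 in 2N and 4N cells. In sorted against unsorted vehicle cells, *Batf3* was higher in 2N cells (1.10) and *Atf5* lower in 4N cells (−1.02). In 4N against 2N cells none of the 16 passed the threshold with either treatment.

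Genes reported as AP-1 targets went both ways. Of the 24, 3 were higher and 6 lower with CYC065 in unsorted cells, 9 and 9 in 2N, and 6 and 10 in 4N cells, with 21, 24 and 23 compared. Over all genes 11.7%, 14.9% and 14.2% were higher and 14.0%, 13.3% and 11.4% lower. The 3 of 21 higher in unsorted cells are near the share over all genes, and the 9 of 24 in 2N and 6 of 23 in 4N cells are above it. The 6 of 21, 9 of 24 and 10 of 23 lower in unsorted, 2N and 4N cells are above the share of lower genes. Whether the list differs from all genes was not tested. *Timp1*, an inhibitor of matrix metalloproteinases, was lowest in each population among targets with at least 100 counts (−2.15, −2.84 and −3.19). *Ccnd1*, the gene of cyclin D1, had −1.85 in unsorted cells, and *Plaur*, the urokinase receptor, −1.86 in 2N cells. *Mmp14*, a membrane-bound metalloproteinase, was higher in each (1.64, 1.74 and 1.33), as were 2 low targets named after their values were seen, *Mmp13* (2.62, 2.68 and 2.12) and *Mmp3* with fractional counts (3.35 in unsorted and 2.66 in 4N cells, and 4.48 with an interval of 2.63 to 7.64 in 2N cells, where the vehicle library held 2 counts). In addition, *Hmox1*, the gene of an inducible heme oxygenase, was higher in 2N and 4N cells (2.27 and 1.99). In 2N against unsorted cells with vehicle 9 of 19 were higher and 2 lower (median 0.98), led by *Plau* (2.46) and *Ptgs2* (2.24), the genes of urokinase and of an inducible cyclooxygenase. *S100a4*, with fractional counts, and *Hmox1* were lowest there (−1.74 and −1.41). In 4N against unsorted cells with vehicle it was 10 of 20 and 2 (median 0.99), and with CYC065 9 of 24 and 0 in 2N and 7 of 23 and 0 in 4N cells. Over all genes, 3.28% and 3.61% were higher in 2N and 4N against unsorted cells with vehicle and 3.6% and 4.23% with CYC065. Lower there were 994 of 13663 and 1190 of 13709 genes with vehicle, and 459 of 14123 and 673 of 14222 with CYC065. In 4N against 2N cells 1 of 20 was higher with vehicle (*Mmp10*) and 3 of 24 were lower with CYC065 (*Mmp9*, *Areg* and *Krt14*), all at low counts. Over all genes, 136 of 13364 were higher with vehicle and 291 of 14183 lower with CYC065 in that comparison.

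The genes nearest in profile to each member were found among 12387 genes as those with the smallest distance between mean-centred log2 CPM over the 6 libraries, where 0 is an identical profile. *Jund* had the closest neighbors, *Mfsd3* (0.08) and *Prdx5* (0.09), followed by *Fosl2* with *Pced1b* (0.12) and *Pex3* (0.14) and *Fosl1* with *Tomm40* and *Grwd1* (0.15 and 0.16). *Jun* had *Glul* and *2610035D17Rik* (0.18 and 0.19), and *Junb* had *1600020E01Rik* and *Rab20* (0.28 and 0.33). *Fosb*, *Atf3* and *Fos* had more distant neighbors. This distance tends to grow with the range of a profile. Their levels ranged 9.21-, 7.05- and 48.9-fold over the 6 libraries, against 1.48-fold for *Jund*. The order of the members by distance is therefore no measure of how particular a profile is. *Fosb* was nearest to *Nr4a1* and *Ptger4* (0.51 and 0.53), and *Atf3* to *Egr2* and *2900060B14Rik* (0.64 and 0.73). *Fos* had no gene closer than 1.09, the distance to *Rnu3b4* and *Rnu3b2*, which are near-identical copies that share fractional counts. *Nr4a1* ordered the 6 libraries as *Fosb* did, at 10.2, 18.2 and 12.7 CPM under vehicle and 41.3, 104 and 49.2 CPM under CYC065.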

How the data were processed

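RNA-Seq measured total RNA of ED1SQ4 cells in 6 conditions. The authors depleted ribosomal RNA, prepared stranded libraries, used bcl2fastq 2.17, Cutadapt 1.18, STAR 2.7.0f on mm10 and RSEM 1.3.1 with GENCODE M21 (versions per the submitters' processing notes). They deposited expected counts for each gene without normalization or filter, which were rounded to whole numbers here. The 18 columns are 3 parts of 1 library for each of the 6 conditions and were summed. Depth was 54750127 to 62795460 counts per library.

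Log2 fold changes were taken between summed libraries after TMM scaling over all 6 (edgeR 4.0.16, R 4.3.3) with a prior count of 0.125. Genes with at least 30 summed counts in 1 of the libraries compared were kept. Intervals are 95% exact binomial (Clopper-Pearson) intervals for pairs of libraries and normal approximations for differences of ratios, computed with SciPy 1.17.1, pandas 2.3.3 and NumPy 2.4.6. They cover counting error only. With 1 library per condition there was no test as the main result. The design assumed so, and edgeR and DESeq2 1.42.0 on the columns served as alternatives. Level per length is CPM per kilobase of merged GENCODE M21 exons, without overlapping genes removed.

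The comparisons were CYC065 versus vehicle in each population, 4N versus 2N in each treatment, sorted versus unsorted cells, and the difference between treatments of the 4N/2N ratio. Differences between sorted and unsorted cells of the CYC065 effect were added after seeing the data. From each gene list, the 2 highest and 2 lowest values were named, provided that 1 library compared had 100 counts or more, and 2 nearest profiles were named for each member (prior count 2, at least 100 counts). The members and lists were chosen with earlier results of these data known. Alternatives were library size scaling, DESeq2 size factors, separate scaling of sorted and unsorted cells, no filter, at least 100 counts, a prior count of 2, an interval wholly beyond 1, the quasi-likelihood test of edgeR on single columns with and without a replicate block, DESeq2, an assumed coefficient of variation of 0.1 or 0.2, and leaving out each replicate. On simulated data for CYC065 versus vehicle in 2N cells, with 200 changed genes among 13224, all 200 were recovered by each method, with at most 11 false calls. The simulated counts held sampling noise alone, with no variation between cultures, and the changes were large and placed in well-counted genes. Recovery therefore checks the computation and cannot show whether the calls would hold between cultures.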

Additional observations from a re-analysis of the deposited data

Results flagged for a closer look

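Both results below are opposite signs of the sorted against unsorted difference in the 2 treatments, with 1 library on each side. For *Fosl2* in 2N against unsorted cells, the log2 fold change was 0.10 under vehicle and −0.20 under CYC065. For *Jund* in 4N against unsorted cells it was 0.38 under vehicle and −0.090 under CYC065, and the latter was 0.11 with library size scaling. CYC065 minus vehicle, the difference was −0.30 (−0.34 to −0.26) for *Fosl2* and −0.47 (−0.56 to −0.37) for *Jund*, with intervals for counting error alone, and neither changed sign under 13 alternatives. With 1 library on each side, a test of these differences between cultures cannot be made.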

How the results depend on the processing

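Of 348 counts recomputed under the alternatives, 291 stayed within 1.5 times their value, and of 1296 log2 values of the members, 1170 moved by less than their counting error, 126 moved by more and 0 changed from past 1 to past −1 or back. Counts of members were 0 or 1 with vehicle (*Fos* −1.02 without replicate 2) and 1 or 2 with CYC065 (*Fosb* −0.99 without replicate 1) in 4N against 2N cells when a replicate was left out. With an interval wholly beyond 1, members past the threshold were 0 in 4N against 2N cells with CYC065 and 1 in 2N against unsorted cells with vehicle. With an assumed coefficient of variation of 0.2 they were 0 and 1 there, 0 in 4N against unsorted cells with CYC065 and 0 in both differences of the CYC065 effect between sorted and unsorted cells. *Fosl2* in unsorted cells was past 1 under 8 of 14 alternatives, and in 4N cells it had 1.01 with library size scaling. Values near 0 changed sign, such as *Jund* with CYC065 in unsorted cells (−0.13 to 0.02) and *Atf3* in 4N against unsorted vehicle cells (−0.16 to 0.09).

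Library size scaling in place of TMM moved the median of all genes by 0.14 in the CYC065 effect of 2N and of 4N cells, and by 0.18 and 0.20 in 2N and 4N against unsorted cells with CYC065, against which the member values are to be read. It moved the share of higher calls from 55.4% to 66.5% in the CYC065 effect of 4N cells, from 52.5% to 69.8% and from 47.2% to 68.2% in 2N and 4N against unsorted cells with CYC065, and from 68.0% to 81.0% and 67.8% to 80.2% in the differences of the CYC065 effect between 2N or 4N and unsorted cells.

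Counts over all genes past the threshold are given in the order 4N against 2N with vehicle and with CYC065, 2N and 4N against unsorted with vehicle, 2N and 4N against unsorted with CYC065, the difference of the 4N/2N ratios, and the differences of the CYC065 effect of 2N and of 4N from unsorted cells. They were 365, 516, 1442, 1685, 967, 1274, 1057, 1755 and 1865. With no filter on low counts they were 5630, 7596, 7133, 7614, 8065, 8193, 10198, 10860 and 10831, and for CYC065 versus vehicle in unsorted, 2N and 4N cells 10468, 11767 and 11131 in place of 3619, 3974 and 3637. With at least 100 counts they were 120, 216, 893, 939, 439, 742, 313, 919 and 971. With an interval wholly beyond 1 they were 70, 163, 745, 865, 352, 583, 105, 573 and 602, and with an assumed coefficient of variation of 0.2, 20, 43, 706, 900, 249, 354, 15, 141 and 110. With 0.1, those that moved were 230 for 4N against 2N with vehicle and 143, 982 and 1049 for the 3 differences. DESeq2 gave 342, 1109 and 1128 for the 3 differences and edgeR 542 for the first. With the replicate block, edgeR gave 531 genes for the difference of the 4N/2N ratios. The block changed no count of members as compared with edgeR without it (5, 5 and 4 for CYC065 versus vehicle in unsorted, 2N and 4N cells). The replicate numbers mark parts of 1 library and pair no cultures. Low levels limit the precision, as *Fos* in vehicle unsorted cells rests on 122 reads and *Atf3* in vehicle 4N cells on 176.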

Other observations

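Proteins that bind AU-rich elements, sequences found in the short-lived RNA of *Fos* and other immediate early genes, were measured as a list of 7. With CYC065, 1 was higher and 1 lower past a log2 fold change of 1 in unsorted cells, 1 and 2 in 2N cells and 1 and 0 in 4N cells. Over all genes, 11.7%, 14.9% and 14.2% were higher and 14.0%, 13.3% and 11.4% lower. With only 7 genes in the list, whether its counts differ from these shares was not tested. *Zfp36l1*, which promotes decay of such RNA, had 1.70, 1.68 and 1.28. *Hnrnpd*, the gene of AUF1, had −1.54, −1.39 and −0.91, and *Tial1* was just past −1 in 2N cells. None of the 7 passed 1 in 4N against 2N cells or in sorted against unsorted cells with either treatment. No RNA half-life was measured.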
